A study of Mus musculus with 20 samples.

Results

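Gene expression in motor cortex was compared between mice with experimental autoimmune encephalomyelitis (EAE), a mouse model of multiple sclerosis, and healthy mice. The comparison was made up of every array of the series labelled as motor cortex, which gave 10 arrays of 20 in all, 6 from EAE mice and 4 from healthy mice. The other 10 arrays came from sensory cortex of the same animals and entered only the test of a difference between the regions. All were female C57Bl6 mice, aged 8 to 12 weeks at injection. EAE was induced with 100 µg of a myelin oligodendrocyte glycoprotein (MOG) peptide under the skin of the flanks, together with a further 50 µg near the base of the tail, and pertussis toxin was injected on days 0 and 3 (400 ng). Tissue was collected on day 21 according to the protocol and on days 18 to 21 according to the sample labels. The healthy mice were cage mates for which no injection is described. Disease and the injections themselves (peptide, adjuvant and toxin) therefore cannot be told apart in this contrast. Each array held the RNA of 1 mouse. Cohort 1 held EAE mice 1 to 3 and healthy mice 1 and 2, and cohort 2 held EAE mice 4 to 6 and healthy mice 3 and 4. The labelled average EAE grade of mice 1 to 6 was 2.50, 3.00, 2.75, 3.00, 3.50 and 3.50.

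In EAE, T cells primed against myelin enter the central nervous system together with monocytes and neutrophils, and ascending paralysis follows. The lesions of this peptide model lie mainly in spinal cord and hindbrain, so the motor cortex is a site remote from most infiltrates. Cytokines in blood and cerebrospinal fluid can act there on endothelium, microglia and astrocytes, the resident cells that sense inflammation, and sickness also raises circulating glucocorticoids.

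The dissected tissue carried the layer pattern of motor cortex. Layer 4 genes were lower in motor than in sensory cortex, Rorb and Rspo1 in 10 of 10 mice and Scnn1a in 9, with healthy means lower by 1.11, 1.18 and 0.88 on the log2 scale. The deep-layer genes Fezf2, Bcl11b and Crym were higher in motor cortex in 10 of 10 mice, with healthy means higher by 0.70, 0.30 and 1.82. Tle4, the remaining deep-layer marker, was lower in motor cortex in 2 of 10 mice, and its healthy mean was higher there by 0.084. All values are log2 expression as deposited, on a scale that ran from 3.79 to 15.1, and the medians of the motor arrays lay between 8.22 and 8.31. Arrays of the same group correlated at 0.994 to 0.998. The precision of every difference is limited by the number of arrays, and p-values measure only the spread between these mice.

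The response was small in size and leaned towards lower expression. Of 18194 genes tested, 410 (2.25%) differed at a Benjamini-Hochberg adjusted p under 0.05 in limma with cohort as a covariate, 94 (0.517%) higher and 316 (1.74%) lower in EAE. Quantile normalization of the motor arrays gave 121 higher and 227 lower, which moved the higher share of calls from 22.9% to 34.8%. The median absolute difference was 0.42 for the higher and 0.39 for the lower genes, and 72 genes (0.396%) also passed 1.5-fold, 25 higher and 47 lower. The 6 EAE arrays lay wholly above the 4 healthy arrays in 270 genes (1.48%) and wholly below in 763 (4.19%), 1033 genes (5.68%) in all. Among the called genes 81 of 94 higher and 299 of 316 lower ones were separated in this way. The median difference over all genes was -0.0077, and 0 called genes had opposite signs in the 2 cohorts. The tissue was not sorted, so fewer cells of a type and less RNA per cell cannot be told apart in any result that follows. Errors given with a difference are standard errors from limma, n = 6 EAE and 4 healthy mice.

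Acute-phase genes and calprotectin led the genes that rose. Lcn2 encodes lipocalin 2, a secreted protein that binds bacterial iron carriers and is induced by inflammatory cytokines. Its level was 5.22, 5.36, 5.47 and 5.41 in healthy mice 1 to 4, and the lowest, median and highest EAE values were 6.72, 7.86 and 9.43. Every EAE mouse was above every healthy mouse, with EAE mice 4 and 6 highest and EAE mouse 3 lowest. Lcn2 rose by 2.67 ± 0.35 (adjusted p = 0.00314), the largest rise of any called gene. S100a8 and S100a9 encode the subunits of calprotectin, abundant in neutrophils and some activated monocytes. S100a8 was at 6.17, 5.89, 6.58 and 6.26 in healthy mice, against 7.67, 8.22 and 8.50 as the lowest, median and highest EAE values. The groups were apart for both subunits, and S100a8 rose by 1.89 ± 0.14 (adjusted p = 5.14e-05) and S100a9 rose by 1.37 ± 0.17 (adjusted p = 0.00248). Lrg1, a secreted glycoprotein of the acute phase that venular endothelium also makes, was at 7.55, 7.78, 7.79 and 7.62 in healthy mice and 8.77, 9.15 and 9.35 in EAE. Its EAE range lay wholly above the healthy one, and Lrg1 rose by 1.41 ± 0.10 (adjusted p = 5.14e-05).

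**Figure D1:**
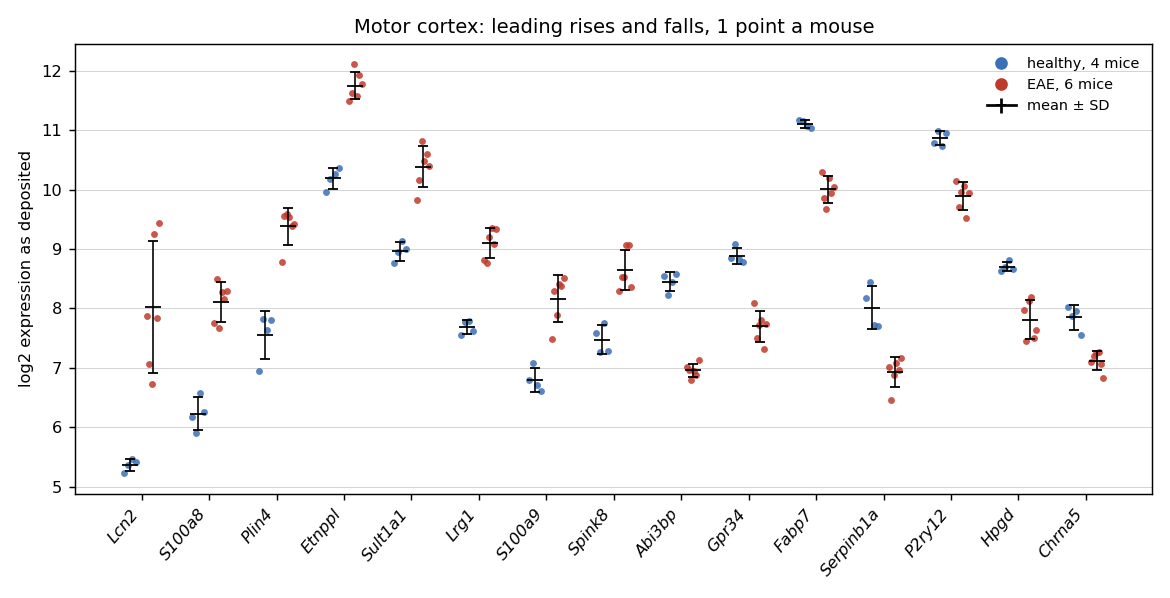
Log2 expression (y axis, as deposited) of 8 genes that rose and 7 that fell (x axis), 1 point a mouse, blue for 4 healthy and red for 6 EAE mice, with the mean and SD of each group. Lcn2 spreads widest among EAE mice, from 6.72 to 9.43, whereas Abi3bp stays between 6.80 and 7.13.

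Genes of lipid, amine and purine handling were also among the largest rises. Plin4, a perilipin that coats lipid droplets, was at 6.95, 7.82, 7.64 and 7.80 in healthy mice and at 8.78, 9.48 and 9.60 in EAE (lowest, median, highest). Healthy mouse 1 and EAE mouse 1 were each the lowest of their group, and Plin4 rose by 1.83 ± 0.18 (adjusted p = 5.58e-04). Etnppl, an astrocyte enzyme that breaks down phosphoethanolamine, was at 9.96, 10.17, 10.27 and 10.37 in healthy mice and 11.49, 11.71 and 12.11 in EAE. The groups were more than a full log2 unit apart at their nearest values, and Etnppl rose by 1.56 ± 0.12 (adjusted p = 5.14e-05). Sult1a1, a sulfotransferase of phenols, rose by 1.42 ± 0.15, and Xdh, the xanthine dehydrogenase of purine breakdown, rose by 1.00 ± 0.13. Spink8, a secreted protease inhibitor, rose by 1.17 ± 0.15. The predicted or unnamed loci Gm19439 and Gm34996 rose by 1.16 ± 0.18 and by 1.04 ± 0.12 in turn. Fcgr4, an activating receptor for IgG on myeloid cells, rose by 1.15 ± 0.27 (adjusted p = 0.0458) and lost its call in 8 of the 10 leave-outs of 1 mouse, with an adjusted p of up to 0.145 without healthy mouse 4.

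Abi3bp had the largest fall. It encodes a secreted protein of the extracellular matrix. Its level was 8.55, 8.22, 8.45 and 8.59 in healthy mice and 6.80, 6.96 and 7.13 in EAE. The EAE values lay within 0.33 of each other and far below the healthy ones, and Abi3bp fell by 1.497 ± 0.079 (adjusted p = 3.24e-06), the smallest p of the comparison. Fabp7, the brain fatty acid-binding protein of astrocytes and radial glia, was at 11.18, 11.16, 11.07 and 11.04 in healthy mice and 9.67, 10.00 and 10.31 in EAE, and fell by 1.11 ± 0.11. Chrna5, an accessory subunit of nicotinic acetylcholine receptors, was at 8.03, 7.87, 7.96 and 7.55 in healthy mice and 6.83, 7.16 and 7.26 in EAE. The groups of both genes were apart, and Chrna5 fell by 0.73 ± 0.095 (adjusted p = 0.00314). Hpgd, which inactivates prostaglandins, fell by 0.89 ± 0.14, and Gadd45a, a stress-response gene, fell by 0.75 ± 0.12. Tnnc1, the troponin C of slow and cardiac muscle, fell by 0.82 ± 0.15, Prss22, a serine protease, fell by 0.78 ± 0.14, and the uncharacterised 1700016K19Rik fell by 0.73 ± 0.12. Pappa2, a protease that releases insulin-like growth factors from binding proteins, fell by 0.74 ± 0.15, with EAE mouse 1 at 7.91 inside the healthy range. Serpinb1a, an inhibitor of neutrophil proteases, fell by 1.08 ± 0.16, but its other probe set, at a lower signal, gave -0.26 ± 0.18 with an unadjusted p of 0.170. The calls lost without 1 mouse were those of Tnnc1 (2 of 10, 0.0529 without healthy mouse 1), Prss22 (1 of 10, 0.0565 without healthy mouse 1) and Pappa2 (7 of 10, 0.105 without healthy mouse 3), with the number of leave-outs that lost the call and the highest adjusted p in parentheses.

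Gene lists of pathways and cell types described how these genes were distributed. The 51 lists held 1004 entries, of which 928 were measured, and 77 of the 410 called genes were in a list, against 333 in none. Each list is given by its called members beside the shares of all genes called, 0.517% higher and 1.74% lower, and beside the median over all genes of -0.0077.

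**Figure D2:**
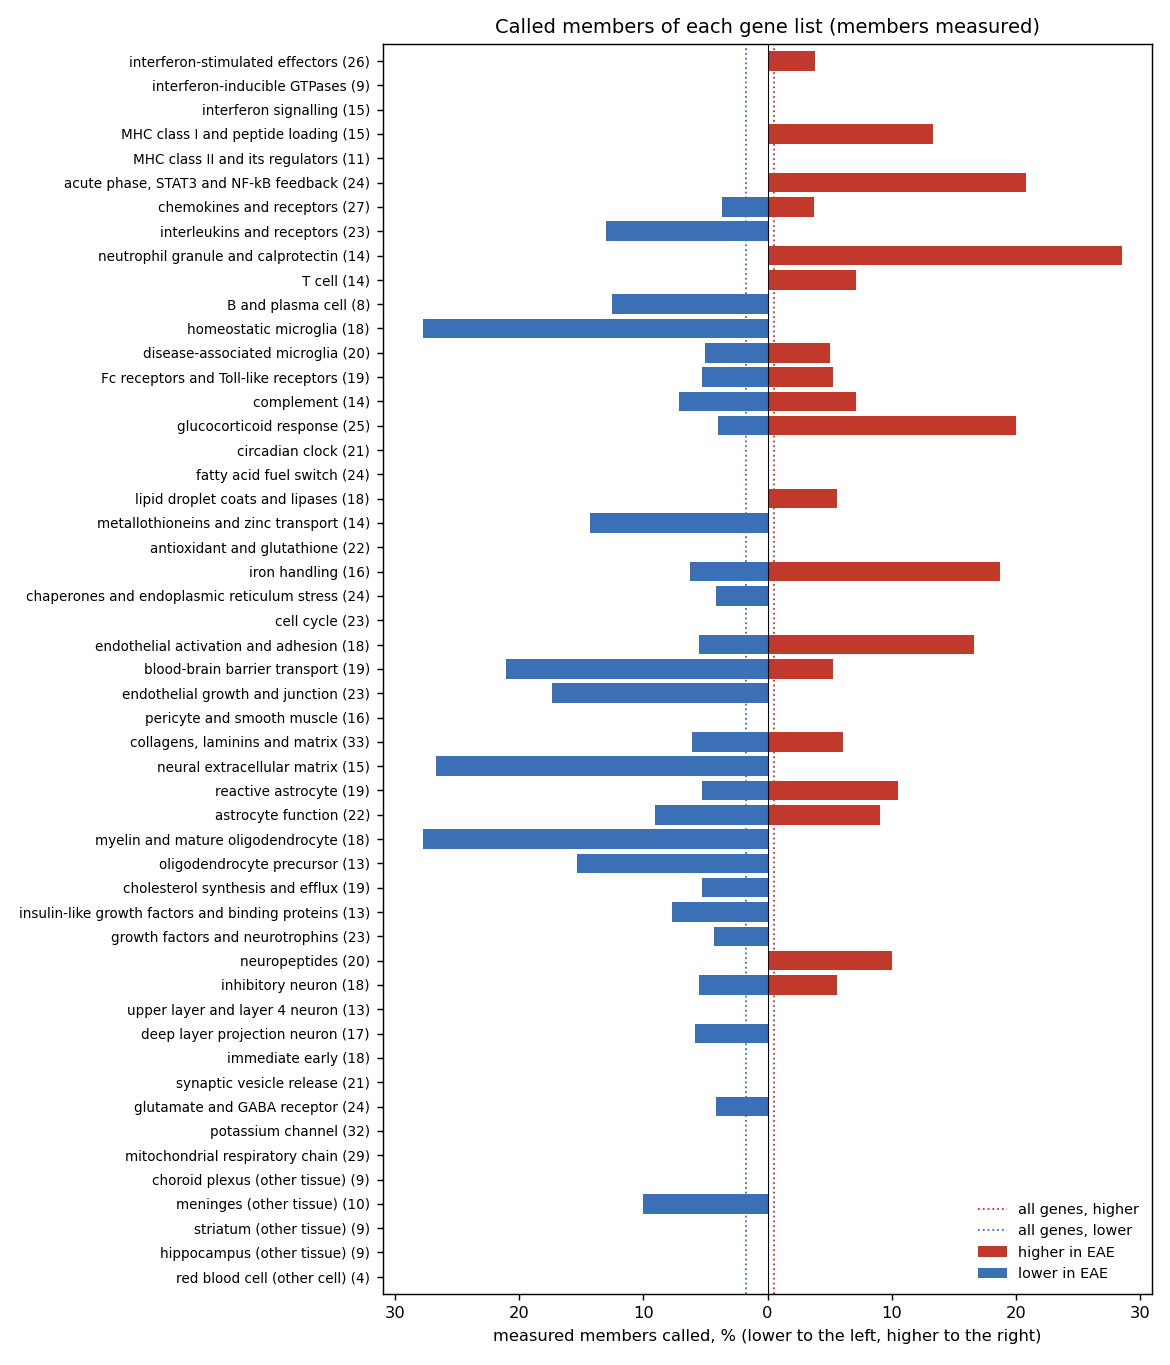
Share of measured members of each of 51 gene lists (y axis, number measured in parentheses) that were called, in percent (x axis, lower in EAE to the left in blue, higher to the right in red). Dotted lines mark the shares over all genes, 0.517% higher and 1.74% lower. The longest bars to the right belong to neutrophil granule genes (28.6%) and acute-phase genes (20.8%), and those to the left to homeostatic microglia and myelin genes (27.8% each).

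The called acute-phase genes rose. Of 24 measured genes of the acute phase, STAT3 and NF-kB feedback, 5 rose and 0 fell, with a list median of 0.17 and 19 members above 0 and 5 below, called or not. Besides Lcn2 and Lrg1 these were Cp, Il1r1 and Cebpd. Cebpd, a transcription factor induced by cytokines and glucocorticoids, rose by 0.79 ± 0.14 (adjusted p = 0.0115), and healthy mouse 3, at 8.91, was level with the lowest EAE mouse. Il1r1, the signalling receptor of interleukin 1, rose by 0.39 ± 0.065 and was separated between the groups. Serpina3n, a protease inhibitor of reactive astrocytes, differed by 0.35 ± 0.11 and was not called (adjusted p = 0.121).

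Of 14 neutrophil granule and calprotectin genes 4 rose and 0 fell, with a median of 0.25. These were S100a8, S100a9, Lcn2 and Ngp. Ngp, a granule protein of immature neutrophils, was at 7.83, 7.52, 7.72 and 7.89 in healthy mice and 8.16, 8.22 and 8.25 in EAE, with all EAE mice above, and rose by 0.48 ± 0.069 (adjusted p = 0.00527). The granule genes Ltf and Camp differed by 0.28 ± 0.068 and 0.23 ± 0.071 and were not called (adjusted p = 0.0555 and 0.122). Mpo and Elane, the defining enzymes of primary granules, were at 6.51 and 7.25 in healthy mice and at 6.74 and 7.28 in EAE, with adjusted p = 0.285 and 0.895. The mean of 7 neutrophil markers ran from 7.05 to 7.16 in healthy mice and from 7.59 to 7.91 in EAE. The part of neutrophils in the rise of Lcn2 and calprotectin was not tested.

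The T cell list and the B and plasma cell list held 1 called gene each, 7.14% and 12.5% of their members, beside 2.25% of all genes. Of 14 T cell genes 1 rose, the chemokine Ccl5, which rose by 0.53 ± 0.12, and 0 fell. Cd3d, Cd3e, Cd3g, Cd4 and Cd8a differed by between -0.052 and 0.23, none called, and lay at the 4.22nd to 41.6th percentile of level over all genes. Of 8 B and plasma cell genes 0 rose and 1 fell: Ighm, the immunoglobulin mu chain, fell by 1.01 ± 0.19 (adjusted p = 0.0162), and 2 of its 10 other probe sets fell at an unadjusted p under 0.05. Cd79a, Cd79b and Ms4a1, which define B cells, differed by 0.0100, -0.053 and 0.28 and were not called. The mean of 4 B cell markers ran from 6.87 to 6.98 in healthy mice and from 6.91 to 7.14 in EAE. Of 27 chemokines and receptors 1 rose, Ccl5, and 1 fell, Ccl27a, which fell by 0.29 ± 0.054. Ccl12, a ligand of Ccr2 on monocytes, differed by 1.64 ± 0.39, with every EAE mouse above every healthy mouse, but was not called (adjusted p = 0.0509). The calls of Ighm (4 of 10, 0.0602 without healthy mouse 2), Ccl5 (5 of 10, 0.126 without healthy mouse 4) and Ccl27a (3 of 10, 0.0742 without healthy mouse 1) were lost without at least 1 mouse, with leave-outs lost and the highest adjusted p in parentheses.

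The classical class I heavy chains rose, and no class II gene passed the test. Of 15 class I and peptide-loading genes 2 rose and 0 fell, with a median of 0.24. H2-K1, a classical class I heavy chain, was at 11.48, 11.72, 11.35 and 11.48 in healthy mice and 11.74, 12.44 and 13.21 in EAE, and rose by 0.91 ± 0.21 (adjusted p = 0.0404). H2-D1, the other classical chain, rose by 0.79 ± 0.16 (adjusted p = 0.0265). Both were apart between the groups, lowest in EAE mouse 1 and highest in EAE mouse 5, and their calls were lost without at least 1 mouse: H2-K1 (7 of 10, 0.141 without healthy mouse 3) and H2-D1 (4 of 10, 0.101 without healthy mouse 3), with leave-outs lost and the highest adjusted p in parentheses. B2m, the shared light chain, differed by 0.39 ± 0.10 (adjusted p = 0.0752). Among 11 class II genes 0 were called, with a median of 0.31. H2-Aa and Cd74, the class II alpha chain and its invariant chain, differed by 2.02 ± 0.58 and 1.71 ± 0.45 (adjusted p = 0.104 and 0.0715), H2-Ab1 by 1.08 ± 0.32 and the protease Ctss by 0.45 ± 0.12. All EAE mice lay above all healthy mice for these 4 genes. Single EAE mice lay between 0.71 and 3.94 above the healthy mean for H2-Aa.

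Interferon-induced genes were high in some EAE mice and at the healthy level in others. Of 26 interferon-stimulated effectors 1 rose, the RNA exonuclease Isg20, which rose by 0.36 ± 0.075, and 0 fell, with a median of 0.34. Ifi27l2a and Ifit3 differed by 1.14 ± 0.27 and 0.87 ± 0.25 and were not called (adjusted p = 0.0525 and 0.102). Of 9 interferon-inducible GTPases, which attack the vacuoles of intracellular pathogens, 0 were called, with a median of 1.10, the largest of any list. Of 15 interferon receptors and signalling genes 0 were called, with a median of 0.018. The call of Isg20 was lost without at least 1 mouse, at worst with an adjusted p of 0.113 without healthy mouse 2.

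Igtp shows the pattern. It stood at 9.53, 9.81, 9.47 and 9.71 in healthy mice 1 to 4 and at 9.51, 12.11, 10.01, 11.27, 12.40 and 10.11 in EAE mice 1 to 6. EAE mouse 1 was within the healthy range, EAE mice 3 and 6 were just above it, and EAE mice 4, 2 and 5 were higher in that order. The difference was 1.28 ± 0.48 (adjusted p = 0.217). Iigp1 was at 7.72, 10.41, 8.17, 9.39, 11.05 and 8.18 in EAE mice 1 to 6, against 7.63 to 7.77 in healthy mice. Mouse 1 was again at the healthy level and mice 2 and 5 were highest, and the difference was 1.46 ± 0.54 (adjusted p = 0.208).

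The 10 genes with the largest SD among EAE arrays were H2-Aa (SD 1.40), Iigp1 (1.36), Gbp6 (1.26), Gbp2 (1.26), Igtp (1.20), Irgm2 (1.14), Oasl2 (1.12), Cd74 (1.11), Lcn2 (1.11) and Ccl12 (1.02). Of these Lcn2 was called; the other 9 were not. In each of the other 9, EAE mouse 5 was highest, EAE mouse 2 next and EAE mouse 4 after it, and EAE mouse 1 was lowest. Lcn2 had another order, with EAE mice 6 and 4 highest and EAE mice 2 and 3 lowest. EAE mice 5 and 6 both had an average grade of 3.50, and their H2-Aa values were 11.84 and 9.12. S100a8 was within 0.84 log2 units among EAE mice, and Etnppl within 0.62. Over all genes the median SD was 0.121 among EAE and 0.0843 among healthy arrays, and the EAE SD was the larger in 13110 genes (72.1%).

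**Figure D3:**
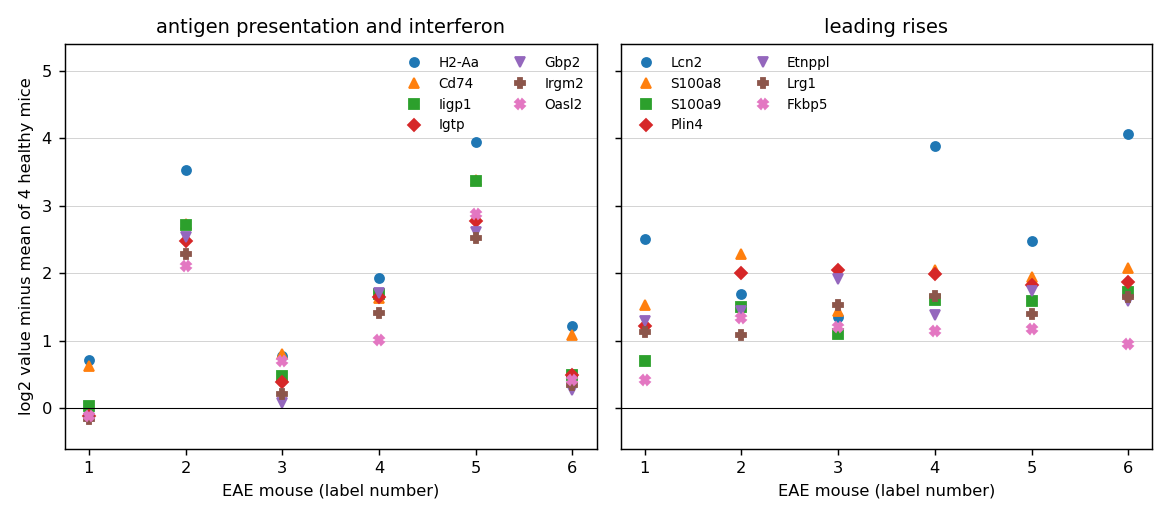
Log2 value of each EAE mouse (x axis, mouse 1 to 6) minus the mean of the 4 healthy mice (y axis), for 7 genes of antigen presentation and interferon response on the left and 7 leading rises on the right, 1 symbol a gene. On the left mice 5, 2 and 4 stand highest and mouse 1 lies between -0.15 and 0.71. On the right Lcn2 is highest in mice 6 and 4, at 4.07 and 3.88.

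The promoters of genes in these groups are shown because the members moved together across mice. The sequences are RefSeq's (GRCm38.p6), each 300 bases from 250 before to 50 after the annotated start, written on the gene's own strand from 5′ to 3′. Promoters were found for 14453 of the 18194 genes tested. The interferon-stimulated response element was searched as GAAA, any 2 bases and GAAA on both strands, and its match is in capitals in the first 3 promoters. The NF-kB element was searched as GGG, any 2 bases, TT, any base and CC on both strands and is in capitals in the promoter of H2-K1, which has 2 promoters in the table. The Igtp promoter lies at chr11:58199306-58199605, plus strand, with its match starting at position -34 from the start. The Irgm2 promoter lies at chr11:58214727-58215026, plus strand, with its match at -64. The Gbp2 promoter lies at chr3:142620413-142620712, plus strand, with the reverse-strand form of the element at -59. The H2-K1 promoter lies at chr17:34000298-34000597, minus strand, with its match at -111.
Igtp: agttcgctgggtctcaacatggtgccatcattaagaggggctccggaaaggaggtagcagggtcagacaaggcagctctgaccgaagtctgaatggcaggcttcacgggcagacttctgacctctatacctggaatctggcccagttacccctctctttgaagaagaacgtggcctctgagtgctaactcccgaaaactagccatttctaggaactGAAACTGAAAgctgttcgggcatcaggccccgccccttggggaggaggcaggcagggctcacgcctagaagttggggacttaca
Irgm2: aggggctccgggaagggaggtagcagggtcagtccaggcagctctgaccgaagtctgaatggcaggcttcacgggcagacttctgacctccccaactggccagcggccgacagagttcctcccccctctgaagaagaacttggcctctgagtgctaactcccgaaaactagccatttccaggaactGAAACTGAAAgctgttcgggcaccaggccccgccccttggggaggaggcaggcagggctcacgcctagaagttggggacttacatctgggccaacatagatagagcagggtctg
Gbp2: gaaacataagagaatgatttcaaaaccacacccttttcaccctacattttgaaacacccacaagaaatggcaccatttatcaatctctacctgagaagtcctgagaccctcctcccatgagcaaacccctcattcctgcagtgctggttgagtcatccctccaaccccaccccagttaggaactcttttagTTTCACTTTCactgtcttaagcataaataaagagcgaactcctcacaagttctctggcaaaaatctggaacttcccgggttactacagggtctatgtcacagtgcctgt
H2-K1: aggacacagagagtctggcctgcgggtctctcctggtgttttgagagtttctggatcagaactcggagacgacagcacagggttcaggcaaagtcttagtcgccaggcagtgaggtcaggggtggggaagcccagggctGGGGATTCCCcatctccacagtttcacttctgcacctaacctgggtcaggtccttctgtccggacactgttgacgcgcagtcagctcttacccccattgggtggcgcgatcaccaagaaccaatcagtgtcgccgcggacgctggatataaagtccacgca
Igtp and Irgm2 are neighbours on chromosome 11, and the longest stretch their promoters share base for base is 61 bases. The interferon-stimulated response element was found in 6 of 7 interferon-inducible GTPases with a promoter and in 11 of 17 interferon-stimulated effectors. Its share was 3.63% over all genes tested with a promoter, and 7 of 69 genes that rose and 6 of 239 that fell held it. Both interferon lists were made of genes known to respond to interferon, so their high shares were built in and do not bear on these mice. The NF-kB element was found in 7 of 69 genes that rose and 22 of 239 that fell, against 6.16% of all genes. A match describes the letters of the window and is not a measured binding site.

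Several microglial identity genes fell. Of 18 genes of homeostatic microglia 5 fell and 0 rose, with a median of -0.20. P2ry12, the purine receptor that steers microglial processes to injury, was at 10.79, 10.99, 10.74 and 10.95 in healthy mice and 9.53, 9.96 and 10.14 in EAE. Gpr34, a lysophosphatidylserine receptor of microglia, was at 8.84, 9.08, 8.84 and 8.79 in healthy mice and 7.32, 7.73 and 8.10 in EAE. For both genes the EAE mice lay wholly below, with EAE mouse 5 lowest and EAE mouse 1 highest. P2ry12 fell by 0.97 ± 0.11 (adjusted p = 0.00152) and Gpr34 fell by 1.19 ± 0.12 (adjusted p = 5.88e-04). P2ry13, another purine receptor, fell by 0.57 ± 0.093, and Tgfbr1, the receptor of the TGF-beta signal that maintains microglia, fell by 0.46 ± 0.057. Siglech, a lectin of microglia, fell by 0.40 ± 0.084. The chemokine receptor Cx3cr1 differed by -0.56 ± 0.14 and was not called (adjusted p = 0.0623). The defining genes Tmem119 and Csf1r differed by -0.21 and -0.19 and were not called. The mean of 5 microglial markers ran from 10.88 to 11.04 in healthy mice and from 10.41 to 10.57 in EAE.

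Called genes of activated microglia moved in both directions. Of 20 genes of disease-associated microglia 1 rose, the integrin Itgax, which rose by 0.35 ± 0.080, and 1 fell, lipoprotein lipase Lpl, which fell by 0.62 ± 0.098. Of 19 Fc and Toll-like receptor genes Fcgr4 rose and Syk fell. The kinase Syk fell by 0.30 ± 0.053, but another of its probe sets gave 0.048. Of 14 complement genes C2, a protease of the classical pathway, rose, and Itgam, a chain of complement receptor 3, fell, with a list median of 0.24. C2 rose by 0.31 ± 0.057 and Itgam fell by 0.46 ± 0.11. The calls of Siglech (7 of 10, 0.105 without healthy mouse 2), Itgax (8 of 10, 0.145 without healthy mouse 4), Syk (2 of 10, 0.0561 without healthy mouse 2), C2 (3 of 10, 0.0666 without healthy mouse 4) and Itgam (8 of 10, 0.158 without healthy mouse 4) were lost without at least 1 mouse, with leave-outs lost and the highest adjusted p in parentheses.

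Vascular genes moved in both directions. Of 18 genes of endothelial activation and adhesion 3 rose and 1 fell, with a median of 0.054. Besides Lrg1 and Il1r1, von Willebrand factor (Vwf), which is released by activated endothelium, rose by 0.69 ± 0.13 (adjusted p = 0.0156). Its level was 8.08, 8.64, 8.27 and 8.34 in healthy mice and 8.56, 9.07 and 9.30 in EAE, and healthy mouse 2 overlapped the lowest EAE mouse. Jam2, a junctional adhesion molecule that lymphocytes bind, was at 10.32, 10.35, 10.28 and 10.25 in healthy mice and 9.82, 9.86 and 9.98 in EAE. The groups were apart, and Jam2 fell by 0.42 ± 0.051 (adjusted p = 0.00248).

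Most of the called blood-brain barrier transporters fell. Of 19 measured 4 fell and 1 rose, with a median of -0.068. Slco1c1, the endothelial and astrocytic carrier of thyroxine, was at 11.96, 11.97, 11.91 and 11.85 in healthy mice and 11.33, 11.38 and 11.42 in EAE. All EAE values lay within 0.09 of each other and below every healthy value, and Slco1c1 fell by 0.54 ± 0.051 (adjusted p = 5.24e-04). Slc38a3, a glutamine carrier, fell by 0.43 ± 0.055, Slc16a1, the monocarboxylate carrier of lactate and ketone bodies, fell by 0.46 ± 0.081, and Slc22a8, an organic anion carrier, fell by 0.77 ± 0.14. Mfsd2a, which imports lysophospholipids and restrains transcytosis, rose by 0.39 ± 0.084, with EAE mouse 1 inside the healthy range.

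The called growth and junction genes of endothelium all fell. Of 23 measured 4 fell and 0 rose, with a median of -0.20. Apln, the peptide ligand of the apelin receptor made by tip cells, fell by 0.72 ± 0.10 (adjusted p = 0.00527), and Emcn, a sialomucin of capillaries and veins, fell by 0.68 ± 0.11 (adjusted p = 0.0077). Tek and Tie1, the angiopoietin receptor and its partner, fell by 0.40 ± 0.073 and by 0.46 ± 0.094. All 4 were wholly lower in EAE mice. Of 16 pericyte and smooth muscle genes 0 were called, with a median of -0.083. The defining endothelial genes Cldn5, Pecam1 and Cdh5 differed by -0.15, 0.049 and -0.27 and were not called, and the mean of 3 endothelial markers ran from 9.11 to 9.39 in healthy mice and from 8.96 to 9.36 in EAE. The calls lost without at least 1 mouse among the vascular genes were those of Vwf (3 of 10, 0.0721 without healthy mouse 1), Slc16a1 (2 of 10, 0.0577 without healthy mouse 1), Slc22a8 (2 of 10, 0.0643 without healthy mouse 4), Mfsd2a (7 of 10, 0.116 without healthy mouse 1), Tek (3 of 10, 0.0724 without healthy mouse 1) and Tie1 (4 of 10, 0.0939 without healthy mouse 4), with leave-outs lost and the highest adjusted p in parentheses.

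**Figure D4:**
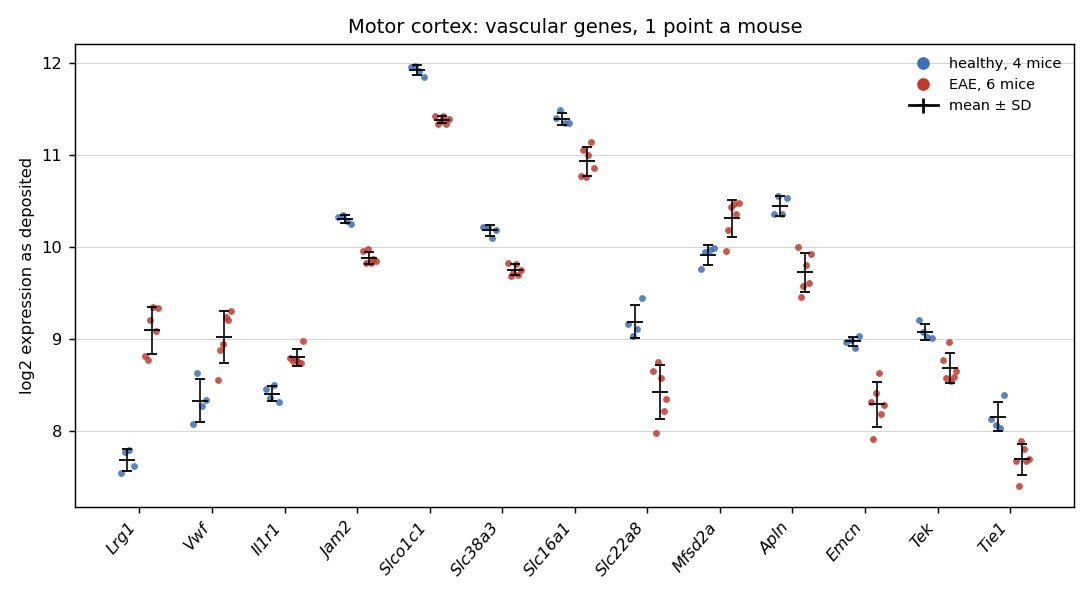
Log2 expression (y axis, as deposited) of 13 genes of endothelium and the blood-brain barrier (x axis), 1 point a mouse, blue for 4 healthy and red for 6 EAE mice, with the mean and SD of each group. Lrg1, Vwf, Il1r1 and Mfsd2a are higher in EAE and the other 9 lower, and the points of Slco1c1 barely spread within a group.

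Matrix genes fell into different classes. Of 33 collagens, laminins and other matrix genes 2 rose and 2 fell, with a median of -0.0042. Matn2, a matrilin that links matrix fibrils, was at 8.78, 8.65, 8.58 and 8.56 in healthy mice and 9.17, 9.38 and 9.69 in EAE. All EAE mice were above, and Matn2 rose by 0.75 ± 0.092 (adjusted p = 0.00248). Sparc, a matricellular glycoprotein, rose by 0.46 ± 0.074, while Abi3bp fell and Lamc1, the laminin gamma 1 chain of basement membranes, fell by 0.21 ± 0.050. Of 15 genes of the neural matrix 4 fell and 0 rose, with a median of -0.0095. Hapln1, the link protein that stabilises perineuronal nets, was at 8.59, 8.604, 8.49 and 8.67 in healthy mice and 7.98, 8.10 and 8.32 in EAE, wholly lower, and fell by 0.47 ± 0.075 (adjusted p = 0.00877). Tenascin C (Tnc) fell by 0.50 ± 0.093, and the chondroitin sulfate proteoglycans Ncan and Cspg5 fell by 0.33 ± 0.069 and by 0.32 ± 0.073. The calls of Lamc1 (9 of 10, 0.158 without healthy mouse 1), Tnc (1 of 10, 0.0523 without healthy mouse 2), Ncan (7 of 10, 0.0939 without healthy mouse 4) and Cspg5 (9 of 10, 0.155 without healthy mouse 4) were lost without at least 1 mouse, with leave-outs lost and the highest adjusted p in parentheses.

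Genes of metal transport changed on both the import and the export side. Of 16 iron-handling genes 3 rose, Lcn2, Cp and Heph, and Slc40a1 fell, with a median of 0.053. Cp and Heph encode ceruloplasmin and hephaestin, ferroxidases that load exported iron onto transferrin, and Slc40a1 encodes ferroportin, the iron exporter. Cp was at 8.88, 8.98, 8.99 and 9.16 in healthy mice and 9.35, 9.50 and 9.65 in EAE. Slc40a1 was at 9.64, 9.71, 9.43 and 9.46 in healthy mice and 8.81, 9.07 and 9.31 in EAE. The ferroxidase was wholly higher and the exporter wholly lower. Cp rose by 0.49 ± 0.078 (adjusted p = 0.0077), Heph rose by 0.40 ± 0.089, and Slc40a1 fell by 0.49 ± 0.077 (adjusted p = 0.00766). Of 14 metallothioneins and zinc transporters 2 fell and 0 rose: Slc30a10, a manganese exporter, fell by 0.64 ± 0.11, and Slc39a8, a zinc and manganese importer, fell by 0.49 ± 0.089. The calls of Heph (9 of 10, 0.131 without healthy mouse 1) and Slc39a8 (1 of 10, 0.0565 without healthy mouse 1) were lost without at least 1 mouse, with leave-outs lost and the highest adjusted p in parentheses.

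Called members of the interleukin list fell, while Il1r1, held in other lists, rose. Of 23 interleukins and receptors 3 fell and 0 rose, with a median of 0.047. Il17ra, the receptor chain for interleukin 17, was at 10.04, 10.23, 9.85 and 9.90 in healthy mice and 9.46, 9.48 and 9.64 in EAE. All EAE mice were below, and Il17ra fell by 0.50 ± 0.074 (adjusted p = 0.00566). Il33, an alarmin kept in glial nuclei, fell by 0.58 ± 0.11, and Il10rb, a shared receptor chain of the interleukin 10 family, fell by 0.31 ± 0.068. The calls of Il33 (2 of 10, 0.066 without healthy mouse 4) and Il10rb (8 of 10, 0.122 without healthy mouse 2) were lost without at least 1 mouse, with leave-outs lost and the highest adjusted p in parentheses.

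Called astrocyte genes went both ways. Of 22 astrocyte function genes Etnppl and Gjb6 rose and Fabp7 and Dio2 fell, with a median of -0.061. Gjb6, the gap junction protein connexin 30, was at 11.45, 11.56, 11.61 and 11.56 in healthy mice and 11.89, 12.14 and 12.39 in EAE, wholly higher, and rose by 0.58 ± 0.080 (adjusted p = 0.00422). Dio2, the deiodinase that makes active thyroid hormone in astrocytes, was at 11.63, 11.78, 11.82 and 11.53 in healthy mice and 11.08, 11.12 and 11.39 in EAE. It was wholly lower and fell by 0.51 ± 0.079 (adjusted p = 0.00709). The water channel Aqp4 differed by -0.40 ± 0.096 and was not called (adjusted p = 0.0524). Of 19 reactive astrocyte genes Lcn2 and Cp rose and S1pr3, a sphingosine phosphate receptor, fell by 0.32 ± 0.072, with an adjusted p of 0.148 without healthy mouse 4. Gfap, the filament protein that marks astrogliosis, was at 10.19, 11.48, 10.32, 10.89, 11.27 and 10.77 in EAE mice 1 to 6 and 10.28, 10.35, 9.79 and 10.25 in healthy mice. EAE mice 2 and 5 were highest and mouse 1 was within the healthy range, and the difference of 0.65 ± 0.23 was not called (adjusted p = 0.176). The mean of 5 astrocyte markers ran from 12.47 to 12.52 in healthy mice and from 12.28 to 12.56 in EAE.

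Several oligodendrocyte genes fell and none rose at the threshold. Of 18 myelin and mature oligodendrocyte genes 5 fell and 0 rose, with a median of -0.26. Ugt8a, the enzyme that makes the myelin lipid galactosylceramide, was at 10.98, 11.25, 10.81 and 10.83 in healthy mice and 10.08, 10.34 and 10.37 in EAE. All EAE mice were below, and Ugt8a fell by 0.69 ± 0.072 (adjusted p = 8.29e-04). Mag, a myelin-associated glycoprotein, fell by 0.45 ± 0.087, Gjb1, connexin 32, fell by 0.42 ± 0.086, Aspa, which splits N-acetylaspartate, fell by 0.44 ± 0.090, and Opalin, a membrane protein of oligodendrocytes, fell by 0.62 ± 0.14. Mbp, myelin basic protein, was at 14.34, 14.58, 14.33 and 14.35 in healthy mice and 14.24, 14.36 and 14.46 in EAE. These ranges overlapped, and its difference of -0.043 ± 0.068 had a sign that turned when healthy mouse 2 was left out (0.019). Of the 7 other probe sets of Mbp 4 were lower in EAE at an unadjusted p under 0.05, by between -0.14 and -0.27. Healthy mouse 2 had the highest value of any healthy mouse for Mbp, Ugt8a, Mag, Aspa and Opalin. The mean of 4 oligodendrocyte markers ran from 11.70 to 12.13 in healthy mice and from 11.39 to 11.77 in EAE, and the part of white matter in the dissected pieces was not tested. The mean of 9 striatal genes, a tissue that lies beneath white matter below the cortex, moved in the same direction, from 9.59 to 10.01 in healthy mice and from 9.43 to 9.61 in EAE. Healthy mouse 2 was highest in both the striatal mean (10.01) and the myelin list mean (11.15), and without a call Penk differed by -0.38 ± 0.098, Gpr6 by -0.63 ± 0.16 and Drd1 by -0.33 ± 0.13 (adjusted p = 0.0682, 0.0715 and 0.247). The part of striatum in the fall of myelin genes was not tested. Of 13 precursor genes 2 fell and 0 rose, with a median of -0.18: Bcas1, of newly formed oligodendrocytes, fell by 0.49 ± 0.080, and the calcium channel subunit Cacng4 fell by 0.33 ± 0.063. The other probe sets of Bcas1, at a lower signal, gave 0.13 ± 0.13 and 0.18 ± 0.090 (unadjusted p = 0.335 and 0.0637 in limma). The defining precursor genes Pdgfra and Cspg4 differed by -0.099 and -0.016 and were not called. Of 19 cholesterol genes 1 fell, the synthase Hmgcs1, which fell by 0.27 ± 0.057, with a median of -0.13, and Idi1 differed by -0.34 ± 0.083 without a call. The calls of Mag (3 of 10, 0.0762 without healthy mouse 1), Gjb1 (4 of 10, 0.104 without healthy mouse 1), Aspa (3 of 10, 0.0669 without healthy mouse 4), Opalin (7 of 10, 0.105 without healthy mouse 2), Cacng4 (2 of 10, 0.0745 without healthy mouse 4) and Hmgcs1 (7 of 10, 0.115 without healthy mouse 1) were lost without at least 1 mouse, with leave-outs lost and the highest adjusted p in parentheses.

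Several genes that respond to glucocorticoids rose. Of 25 measured 5 rose and 1 fell, with a median of 0.24. Besides Plin4, Sult1a1 and Lcn2, which is also an acute-phase gene, these were Fkbp5 and Hif3a. Fkbp5, a co-chaperone that restrains the glucocorticoid receptor and is induced by it, was at 10.07, 10.24, 10.33 and 10.23 in healthy mice and 10.64, 11.55, 11.42, 11.36, 11.39 and 11.17 in EAE mice 1 to 6. EAE mouse 1, with the lowest grade, was lowest and the other 5 lay within 0.38, and Fkbp5 rose by 1.04 ± 0.14 (adjusted p = 0.00422). Hif3a, a hypoxia-inducible factor subunit, rose by 0.61 ± 0.084 (adjusted p = 0.00422). The receptor itself, Nr3c1, was at 11.76, 11.76, 11.72 and 11.69 in healthy mice and 11.29, 11.45 and 11.54 in EAE, wholly lower, and fell by 0.30 ± 0.055 (adjusted p = 0.0156, and 0.0621 without healthy mouse 1). Tsc22d3, a mediator of glucocorticoid effects on leukocytes, differed by 0.35 ± 0.086 and was not called (adjusted p = 0.055). A glucocorticoid response element, searched as G, any base, ACA, any 3 bases, TGT, any base and C on both strands, was found in 3 of 21 list genes with a promoter and in 0.422% of all genes. The list was made of genes known to respond to glucocorticoids, so a high share was built in and does not bear on these mice. A match was found in Mt1 and Serpina3n, neither of them called, and not in Fkbp5. Of 21 circadian clock genes, 24 genes of the fatty acid fuel switch, 22 antioxidant genes and 23 cell cycle genes 0 were called in each list, with medians between -0.045 and 0.025.

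Lists of neuronal genes held 0 to 2 called genes each. With 2.25% of all genes called, lists of this size hold few by that share alone. Of 21 synaptic vesicle genes, 32 potassium channels, 29 respiratory chain subunits, 13 upper-layer and 18 immediate early genes 0 were called in each list. Slc17a7, the vesicular glutamate transporter of cortical projection neurons, differed by 0.0088 ± 0.090, and Pvalb, of fast-spiking interneurons, by 0.027 ± 0.078, with signs that turned under some alternatives. The activity genes Fos and Fosb differed by 0.35 ± 0.26 and 1.03 ± 0.39, neither called, and Fosb ranged from 8.99 to 11.49 among EAE mice. Of 20 neuropeptides 2 rose and 0 fell, with a median of -0.068. Pdyn, the precursor of dynorphin, was at 8.53, 8.61, 8.605 and 8.597 in healthy mice and 8.73, 8.99 and 9.07 in EAE, wholly higher, and rose by 0.37 ± 0.069 (adjusted p = 0.0165). Vip, of a class of disinhibitory interneurons, rose by 0.31 ± 0.060, and somatostatin (Sst) differed by -0.26 ± 0.064 without a call (adjusted p = 0.0567).

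A few other neuronal genes fell, in lists of which 1 or 2 members were called. Of 18 inhibitory neuron genes Vip rose and Ndnf, a secreted factor of layer 1 interneurons, fell by 0.72 ± 0.15. Of 17 deep-layer genes Ntsr1, the neurotensin receptor of corticothalamic cells, fell by 0.42 ± 0.093, with EAE mouse 4 at 9.01 inside the healthy range. Of 24 glutamate and GABA receptor genes Gabrd, the delta subunit of extrasynaptic GABA receptors, fell by 0.40 ± 0.089, but its other probe set, at a lower signal, gave 0.17 ± 0.064 with an unadjusted p of 0.0191. Of 23 growth factor genes Hbegf fell by 0.43 ± 0.095, and of 24 chaperone genes Dnajb5 fell by 0.28 ± 0.058. Of 13 genes of insulin-like growth factor proteins Igfbp2 fell by 0.75 ± 0.18. These single calls were 4.35%, 4.17% and 7.69% of the measured members, beside 2.25% of all genes, and describe the gene rather than its list. Igfbp2 is also made by meninges and was the 1 gene called of 10 meningeal genes. Choroid plexus, striatum and hippocampus lists of 9 genes each and 4 red blood cell genes had 0 called. The striatum list had a median of -0.16, with 7 of 9 members below 0. The calls of Pdyn (3 of 10, 0.0729 without healthy mouse 1), Vip (4 of 10, 0.0874 without healthy mouse 1), Ndnf (5 of 10, 0.088 without healthy mouse 4), Ntsr1 (9 of 10, 0.143 without healthy mouse 1), Gabrd (7 of 10, 0.127 without healthy mouse 2), Hbegf (7 of 10, 0.124 without healthy mouse 4), Dnajb5 (5 of 10, 0.115 without healthy mouse 1) and Igfbp2 (7 of 10, 0.151 without healthy mouse 1) were lost without at least 1 mouse, with leave-outs lost and the highest adjusted p in parentheses.

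The EAE effect in motor cortex was not shown to differ from that in sensory cortex of the same mice. In limma, 0 genes passed the test of the difference between regions (422 had an unadjusted p under 0.05, the smallest adjusted p was 0.99987). The smallest unadjusted p-values belonged to H2-Ab1, Spink8 and Pappa2. H2-Ab1 differed between EAE and healthy mice by 1.08 in motor and 1.63 in sensory cortex, a difference between regions of -0.56 ± 0.11. Spink8 differed by 1.17 in motor and 0.55 in sensory cortex (0.62 ± 0.13). Pappa2 differed by -0.74 in motor and 0.040 in sensory cortex (-0.78 ± 0.16). The leading fall, Abi3bp, was -1.497 in motor and -1.56 in sensory cortex, Lcn2 was 2.67 and 3.48, and Slco1c1 was -0.54 and -0.51.

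The cohorts were not shown to differ in their EAE effect. The difference of the effect between cohorts passed in 0 genes in limma (814 had an unadjusted p under 0.05, the smallest adjusted p was 0.953), as did the level of cohort 2 against cohort 1 (687 at an unadjusted p under 0.05). The smallest p-values of the difference in effect belonged to 4930570E03Rik, whose EAE difference was 0.47 in cohort 1 and -0.21 in cohort 2, Neat1, with -0.19 and 0.59, and Gm29722, with 0.25 and -0.42. Lcn2 differed by 1.93 in cohort 1 and 3.41 in cohort 2, and Abi3bp by -1.46 and -1.53.

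Which genes were called depended on the mice included. Leaving out 1 mouse at a time gave between 145 and 470 called genes. Without a healthy mouse the count was 145 to 194, and without healthy mouse 4, whose array was processed on a later day than the other 9, it was 194 (34 higher, 160 lower). Leaving out EAE mouse 1, which had the lowest grade and healthy-level interferon genes, raised the higher calls from 94 to 169. The calls of 117 genes, 28 higher and 89 lower, remained in each of the 10 leave-outs, among them Lcn2, S100a8, Lrg1, Plin4, Etnppl, Fkbp5, Abi3bp, Gpr34, P2ry12, Fabp7, Slco1c1, Jam2, Matn2, Il17ra, Dio2 and Ugt8a.

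**Figure D5:**
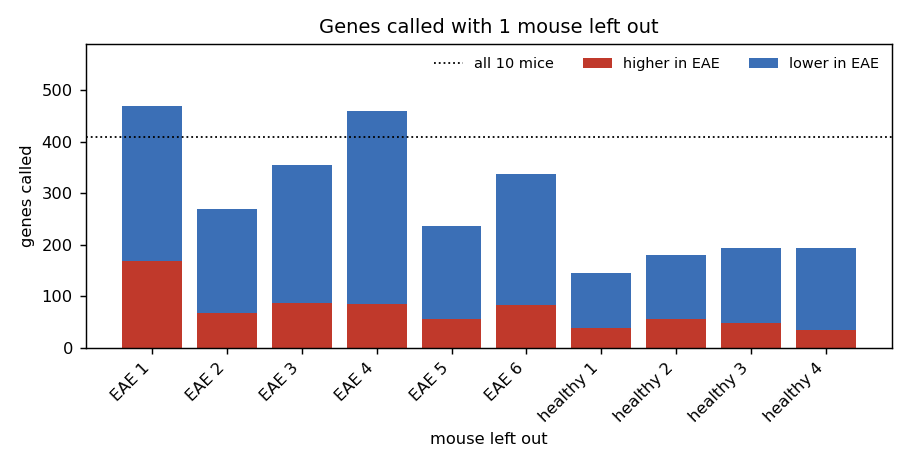
Number of genes called (y axis) when the mouse named on the x axis was left out, stacked as lower (blue) and higher (red) in EAE, with a dotted line at the 410 genes called with all 10 mice. The counts run from 145 without healthy mouse 1 to 470 without EAE mouse 1.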

How the data were processed

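RNA of 10 motor cortex pieces was hybridised to 1 Affymetrix array a mouse, per the labels. The authors deposited log2 values for 45101 probe sets; the submitters' processing notes name RMA and Partek, whose versions are not given in the sources used here. The method RMA equalises array distributions and compresses differences at low signal. Names came from the platform annotation, in which 34958 probe sets had 1 symbol, 932 several and 9211 were unlisted; only those with 1 symbol were used. RefSeq (GRCm38.p6) matched 34754 by Entrez identifier and changed 0 symbols. Each of 18194 genes was represented by its probe set of highest mean across the 20 arrays. EAE and healthy arrays were compared in limma 3.58.1 under R 4.3.3, with lmFit, eBayes, two-sided tests and a term for cohort, and a gene was called where its Benjamini-Hochberg adjusted p was under 0.05; every printed adjusted p is from limma. The code was tested on simulated data.

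Named were the 15 called genes that rose most and the 15 that fell most, up to 4 members of each list with the smallest p, a set of genes (Lcn2, Gfap, Serpina3n, Cd74, H2-K1, P2ry12, Mbp, Slc17a7, Pvalb, Fos, Fkbp5), the marker genes, the 10 genes with the largest SD among EAE mice and the 3 smallest p-values of each test of a difference in effect. Siglech, Opalin, Mfsd2a, Hif3a, Nr3c1 and the genes of the last section outside the lists were named after their values were seen. The groups, lists and tests were chosen with earlier results of these data known. Alternatives were other probe set rules, scalings, filters, array weights, the trend prior, the replicate block, single cohorts, all 20 arrays and leave-outs.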

Additional observations from a re-analysis of the deposited data

Results flagged for a closer look

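In each group of 6 EAE or 4 healthy mice, the highest and lowest log2 values of the named genes were tested for standing apart from the rest (Dixon's ratio). Of 282 groups 15 did, 7 of EAE and 8 of healthy mice. Chance gives about 1 in 20 groups.

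Among EAE mice, mouse 1 stood low for Plin4 (8.78, next 9.39) and high for Wnt7b (10.29, next 10.08). EAE mouse 6 was high for Il1r1 (8.98, next 8.80) and for Pltp (11.78, next 11.46), EAE mouse 4 for Il17ra (9.64, next 9.52) and EAE mouse 2 for Sema5b (8.49, next 8.23). EAE mouse 5 was low for Dkk2 (6.10, next 6.41).

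Among healthy mice, mouse 2 was high for Ighm (12.69, next 12.43), Aspa (10.46, next 10.02), Mbp (14.58, next 14.35) and Sema4d (10.10, next 9.93). Healthy mouse 3 was high for Cebpd (8.91, next 8.37) and low for Pvalb (12.90, next 13.10) and Retsat (8.67, next 8.81). Healthy mouse 1 was low for Pdyn (8.53, next 8.597).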

How the results depend on the processing

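The count of called genes moved more than the direction of any gene. It was 410 (94 higher, 316 lower) as reported. It was 905 (244 and 661) with array weights. Cohort 1 only gave 9 (4 and 5) and cohort 2 only gave 16 (12 and 4). A 1.5-fold minimum gave 72 (25 and 47), and such a minimum lowers a count by construction. The single cohorts hold fewer mice, and the cause was not tested for them or for array weights. All 20 arrays with the mouse as a random block gave 152 higher genes and 587 in all. Leaving out 1 mouse gave 145 to 470 called, 34 to 169 higher and 108 to 375 lower. With the replicate block added to cohort, 145 genes were called (46 and 99), 117 of them among the 410. The numbers mark different animals in the EAE and healthy groups, so same-numbered arrays were not taken as pairs. Their deviations from the group means correlated at 0.216, 0.292, 0.0156 and 0.131. Differently numbered arrays were not compared in this way, so these values cannot decide on pairing. Quantile normalization gave 348 calls, 301 of them shared, and median centring 348, 330 of them shared. The 2 tests of a difference in effect gave 0 calls under each alternative run. Under the block, either cohort, quantile normalization, centring, all 20 arrays or the mean of probe sets, 0 of the 410 changed sign.

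Of 141 named genes 113 were called, and 51 of these kept the call without any one mouse. Syk was 0.048 (adjusted p = 0.887) with the probe set of the highest median absolute deviation, the 1 called named gene that reversed. Uncalled genes near 0 also turned sign. Mbp was 0.025 in cohort 2 only and -0.074 to 0.019 over the leave-outs of 1 mouse. Slc17a7 was -0.050 in cohort 1 only, -0.062 with array weights and -0.069 to 0.11 over the leave-outs. Pvalb was -0.066 with the replicate block, -0.033 in cohort 1 only and -0.032 to 0.059 over the leave-outs. Fos was -0.074 in cohort 1 only. Of 1120 list medians under alternatives 34 moved by more than the replicate spread. Of 59 called named genes with several probe sets, 15 had no other probe set changed the same way at an unadjusted p under 0.05. Bcas1, S1pr3, Ndnf, Il10rb and Cebpd were among them. Low signal, as for Lcn2 in healthy mice, compresses a difference on these arrays. With 6 and 4 mice, a gene that was not called may still differ.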

Other observations

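Further called genes outside the lists fell into groups that were chosen after their values were seen, so they are descriptions without support from a count. Among genes of Wnt signalling, the secreted inhibitors Wif1 and Dkk2 fell by 0.52 ± 0.090 and by 0.38 ± 0.089 (log2, standard error, n = 6 EAE and 4 healthy mice). Wif1 was at 5.59, 5.03, 5.27 and 5.19 in healthy mice and 4.65, 4.76 and 4.80 in EAE, which is among the lowest levels on the array. Apcdd1, a membrane inhibitor of Wnt receptors, was at 10.43, 10.48, 10.38 and 10.45 in healthy mice and 9.66, 9.88 and 10.07 in EAE. All EAE mice were below, and Apcdd1 fell by 0.57 ± 0.078 (limma adjusted p = 0.00422). The ligands Wnt7b and Ndp, which act on brain endothelium, fell by 0.33 ± 0.071 and by 0.37 ± 0.060, and the receptor Lgr4 fell by 0.25 ± 0.056. Gli1, a transcription factor and readout of hedgehog signalling, rose by 0.38 ± 0.061 (adjusted p = 0.00843).

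Called genes of retinoid handling, picked from those that passed, went both ways. Rlbp1, a carrier of retinaldehyde, was at 8.80, 8.92, 8.83 and 8.59 in healthy mice and 7.95, 8.21 and 8.35 in EAE and fell by 0.59 ± 0.090 (adjusted p = 0.00675). Rpe65, a retinoid isomerase best known from the eye, fell by 0.67 ± 0.15, the retinol carrier Rbp4 fell by 0.33 ± 0.075, and Dhrs3, which reduces retinaldehyde, fell by 0.27 ± 0.061. Retsat, which saturates retinol, rose by 0.33 ± 0.074. Among lipid genes, Elovl2 and Fads2, enzymes of polyunsaturated fatty acid synthesis, fell by 0.46 ± 0.087 and by 0.26 ± 0.061, the lysophosphatidic acid receptor Lpar1 fell by 0.54 ± 0.10, and the phospholipid transfer protein Pltp fell by 0.40 ± 0.079. The cytochromes P450 Cyp1b1, Cyp4f15 and Cyp2d22 rose by 0.73 ± 0.095, 0.49 ± 0.080 and 0.39 ± 0.074. Among axon guidance genes, Slit2 fell by 0.41 ± 0.083, Sema5b fell by 0.45 ± 0.099, Sema4d fell by 0.45 ± 0.087, Sema7a fell by 0.32 ± 0.070 and the semaphorin receptor Plxnb3 fell by 0.30 ± 0.071. The calls of Dkk2 (8 of 10, 0.174 without healthy mouse 1), Wnt7b (7 of 10, 0.115 without healthy mouse 1), Lgr4 (8 of 10, 0.145 without healthy mouse 2), Rpe65 (8 of 10, 0.116 without healthy mouse 2), Rbp4 (9 of 10, 0.157 without healthy mouse 1), Dhrs3 (8 of 10, 0.132 without healthy mouse 2), Retsat (9 of 10, 0.134 without healthy mouse 3), Elovl2 (3 of 10, 0.0687 without healthy mouse 3), Fads2 (9 of 10, 0.16 without healthy mouse 2), Lpar1 (3 of 10, 0.085 without healthy mouse 4), Pltp (5 of 10, 0.0923 without healthy mouse 1), Cyp2d22 (3 of 10, 0.074 without healthy mouse 1), Slit2 (5 of 10, 0.0984 without healthy mouse 3), Sema5b (6 of 10, 0.0978 without healthy mouse 3), Sema4d (4 of 10, 0.0733 without healthy mouse 2), Sema7a (7 of 10, 0.122 without healthy mouse 2) and Plxnb3 (10 of 10, 0.146 without healthy mouse 2) were lost without at least 1 mouse, with the number of leave-outs that lost the call and the highest limma adjusted p in parentheses.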
